A study of Zea mays with 6 samples.

Results

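The genes described here were read in the young base of a maize leaf and gave no read at all in its mature blade. They are the 200 protein-coding genes with 0 exon reads in both RNA libraries of the maturing zone that stood highest in the base, selected on the smaller of their levels in base libraries A and B. Levels are RPKM, the authors' read counts scaled by exon length and library size. The 200 were drawn from 9887 protein-coding genes with 0 maturing zone reads, among 39313 protein-coding genes and 110149 features in all. Because transcript reads chose them, their transcript values are given as a description. The 2 histone marks measured in the same tissue had no part in the choice.

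Material came from the third leaf of maize (Zea mays), inbred line B73, 13 to 14 days after sowing. Days had 16 h of light (130 µmol photons, 25 °C), and nights lasted 8 h at 20 °C. For the maturing zone, 4 cm were taken midway along the lit blade. Shoots were cut 0.5 cm above the soil, and the bottom 1 to 2 cm, which had grown without light, made up the base. Each replicate of poly(A) RNA pooled 6 plants and each chromatin replicate 10 plants. Both marks were read by sequencing DNA bound to immunoprecipitated chromatin (ChIP-seq). The study asked how acetylation of histone H3 at lysine 9 (H3K9ac), trimethylation at lysine 4 (H3K4me3) and transcription differ between the zones. Both zones are mixtures of cell types, so fewer cells of a type and less RNA or less mark per cell cannot be told apart.

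A maize leaf grows from its base, where cells divide, expand and take on their fates, and a gene used in those steps can be switched off before the cells reach the blade. H3K9ac and H3K4me3 both lie around the start of transcribed genes. Acetyl groups are placed and removed by acetyltransferases and deacetylases and turn over quickly, whereas methyl groups are placed by SET-domain methyltransferases and removed by demethylases or diluted as DNA is copied. How much of each mark stays at a gene that is no longer read was the comparison made here.

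The 4 RNA libraries held 44243772 and 24205348 exon reads (base, A and B) and 50657759 and 18325106 (maturing zone, A and B). Genes typical of each zone were read there. The C4 enzyme PEPC stood at 4.04 and 3.72 RPKM in the base libraries and at 2206 and 2299 RPKM in the maturing zone, and the DNA replication helicase subunit MCM6 at 34.1 and 11.1 RPKM in the base and at 0.01 and 0.04 in the maturing zone. The base libraries were unlike each other in the shoot apex gene KN1, which had 169 reads in base A and 2 in base B, against 8 and 6 in maturing zone libraries A and B. The part of this difference in the results below was not tested beyond ranking the genes by either base library alone.

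The 200 genes were lowly to moderately transcribed in the base. Their reads ranged from 8 to 1347 in base A, with a median of 56, and from 6 to 925 in base B, with a median of 48. The smaller of the 2 base levels ranged from 0.33 to 16.44 RPKM with a median of 0.93, and 88 of the 200 genes reached at least 1 RPKM in both libraries. In all, 20980 protein-coding genes stood at 0.33 RPKM or more in both base libraries, and the 200 make up 0.953% of them. At the threshold the choice rests on few reads. The genes ranked 198 to 200, GRMZM2G322220, GRMZM2G038674 and GRMZM2G142721, had smaller base levels of 0.34, 0.33 and 0.33 RPKM. The next 3, GRMZM2G531719, GRMZM5G824921 and GRMZM2G143608, had 0.33, 0.33 and 0.32 RPKM, so that feature name decided between equal values.

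Silence in the maturing zone was bounded by depth. A count of 0 allows up to 3 reads over both maturing zone libraries together, which for these genes corresponds to an upper limit of 0.00997 to 0.182 RPKM, with a median of 0.0425. Against that floor the genes were at least 4.7-fold to at least 554-fold lower in the maturing zone, with a median bound of at least 38.3-fold when libraries were scaled by exon read totals. Scaling with edgeR's TMM factors, which allow for the few very abundant blade transcripts, multiplied each bound by 0.472 and gave a median of at least 18.1-fold and a range from at least 2.22-fold to at least 262-fold. These bounds cover counting error only.

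Most of the 200 genes were higher in base library B than in A. The RPKM was higher in B for 147 of the 200, with a median ratio of B to A of 1.64, whereas over the 20980 protein-coding genes at 0.33 RPKM or more in both base libraries the median ratio was 0.879 and 44.3% were higher in B. The widest gap was at GRMZM5G888797, with 17 reads (0.41 RPKM) in base A and 321 (14.68 RPKM) in base B. The opposite extreme, GRMZM5G820912, had 326 reads (9.75 RPKM) in base A and 32 (1.79 RPKM) in base B. The 200 genes were also short, with a median exon length of 1023 bp, derived from reads and RPKM, against 1988 bp for the 16452 genes that stood at 0.33 RPKM or more in all 4 libraries. Asking for 0 reads by itself favours short genes, and the part of the choice in this difference was not tested.

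**Figure D1:**
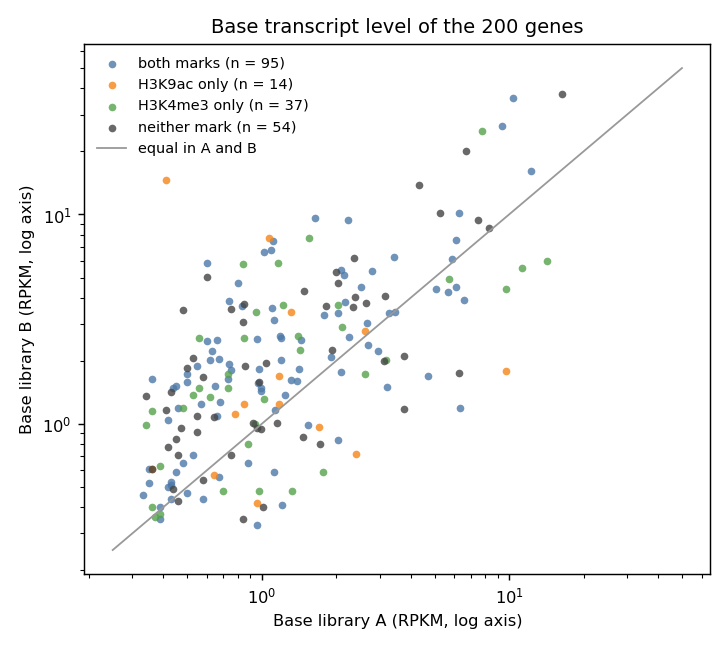
Level of each of the 200 genes in base library A (x axis) and base library B (y axis), in RPKM on log axes, coloured by the marks for which a region was assigned to the gene; the line marks equal levels. Of the 200 points, 147 lie above the line, and genes with neither mark (n = 54) lie along the whole range.

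The marks were compared through the authors' lists of regions, in which each region carries an average of normalized reads per zone and the name of the next gene. A region of both marks was assigned to 95 of the 200 genes, H3K9ac alone to 14, H3K4me3 alone to 37 and neither mark to 54. H3K9ac was therefore present at 54.5% of the genes and H3K4me3 at 66.0%, near the shares of 59.4% and 58.5% over all protein-coding genes. Of all protein-coding genes, 54% had both marks and 36.0% neither, against 47.5% and 27.0% of the 200. The 16452 genes active in both zones had an H3K9ac region in 89.3% and an H3K4me3 region in 86.9% of cases, and the 7403 protein-coding genes with 0 reads in all 4 libraries had them in 13.6% and 12.0%.

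A high base level did not go with a marked region at every gene. The gene with the highest level, GRMZM2G009097, had 597 and 727 reads in base libraries A and B (16.44 and 37.51 RPKM), 0 and 0 in the maturing zone, and no region of either mark. GRMZM2G025718 (8.29 and 8.60 RPKM in base A and B), GRMZM2G009117 (7.51 and 9.42 RPKM) and GRMZM5G875516 (6.67 and 19.99 RPKM) also had neither mark, so that 4 of the 10 highest genes were without a region. The median of the smaller base level was 0.865 RPKM for the 54 genes with neither mark and 0.99 RPKM for the 95 with both. Whether the region lists missed these genes or named another gene as the next one was not tested.

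At genes that had an H3K9ac region, little of the acetylation stayed in the maturing zone. Where a gene had several regions, the one with the highest base average is described, and the retained share is the maturing zone average as a percentage of the base average. The median of the authors' averages went from 196.8 normalized reads at the base to 43.6 in the maturing zone over 109 genes, and the median retained share was 20.7%, with quartiles of 12.4% and 36.1%. Over all 43734 H3K9ac regions the median retained share was 100.6%. In the base, the strongest regions of the 200 genes were weaker than those of other genes: with each gene's strongest region taken, the median base average was 377.5 over all protein-coding genes and 457.9 over genes active in both zones. Ranked among all H3K9ac regions, secondary ones included, the genes' base values had a median at the 47.3th percentile, and 1 of 109 was in the lowest 10%. In the maturing zone their median was the 7.44th percentile, and 62 of 109 were in the lowest 10%.

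At the authors' deposited FDR under 0.05, 100 of these 109 genes had lost H3K9ac, 6 had gained it and 3 were not called. Among the 23369 protein-coding genes with an H3K9ac region, taken in the same way, 35.6% had lost the mark and 23.9% had gained it by the same threshold. The loss was often deep: 15 genes kept under 10% of their base signal and 52 kept 10 to 25%. A further 23 kept 25 to 50%, 13 kept 50 to 100% and 6 kept 100% or more. The authors' lowest H3K9ac average in the maturing zone was 2.69 over all regions, held by 2 of them, and 8.24 among these genes. A maturing zone average of 10.5, at GRMZM2G142721, already lay at the 0.167th percentile of all regions. The lowest values among these genes were thus close to the bottom of the scale.

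H3K4me3 was also lower, with more of it left. The median of the authors' averages went from 125.4 normalized reads at the base to 40.6 in the maturing zone over 132 genes. The median retained share was 33.2%, with quartiles of 16.1% and 56.8%, against 100.8% over all 32908 H3K4me3 regions. The median base average of all protein-coding genes, taken in the same way, was 238.7. The genes' regions moved from a median of the 35.9th percentile of all H3K4me3 regions in the base to the 11.2th in the maturing zone, and from 10 to 61 of 132 in the lowest 10%.

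At the authors' deposited FDR under 0.05, 83 of these 132 genes had lost H3K4me3, 2 had gained it and 47 were not called. The share of loss among the 23007 protein-coding genes with an H3K4me3 region was 13.3%, and that of gain 10.1%. The 47 genes not called kept between 30.4% and 178% of their base signal, with a median of 70.0%, and 38 of the 47 were lower in the maturing zone. Their base averages had a median of 77.3 normalized reads, against 152.2 for the 83 genes that had lost the mark, so the called regions were the stronger ones by median. A miss of the threshold at these genes does not show that the mark was kept in full.

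**Figure D2:**
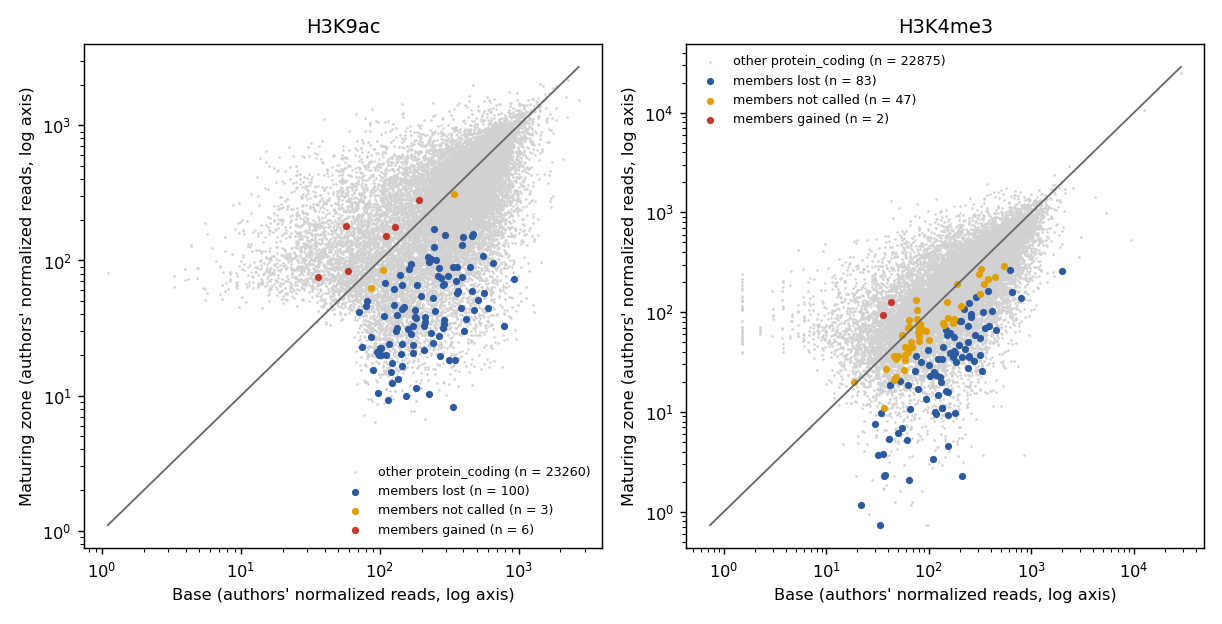
Authors' average normalized reads in the base (x axis) and the maturing zone (y axis), log axes, for H3K9ac (left) and H3K4me3 (right); grey points are the other protein-coding genes, coloured points the silenced genes by their call in the authors' deposited table, and the line marks equal signal. The silenced genes fall mostly under the line, with 100 of 109 lost for H3K9ac and 83 of 132 for H3K4me3.

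Among genes with the highest base level, the loss was seen in both marks. GRMZM2G140739 had 697 and 488 reads in base libraries A and B (12.23 and 16.04 RPKM) and none in the maturing zone. Its H3K9ac average went from 132.8 in the base to 39.2 in the maturing zone and its H3K4me3 average from 153.8 to 15.7. GRMZM2G133291 had 428 and 792 reads in base libraries A and B (10.38 and 35.96 RPKM), with H3K9ac going from 145.0 to 24.2 and H3K4me3 from 101.6 to 22.8. Both genes had lost both marks in the authors' deposited table. GRMZM2G083717 (6.27 and 10.16 RPKM in base A and B) kept 11.6% of its H3K9ac and 23.5% of its H3K4me3, and it too had lost both marks by that table.

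The other marked genes of the top 10 kept H3K4me3 to a larger share. GRMZM2G041866 had 614 and 925 reads in base libraries A and B (9.33 and 26.33 RPKM), lost H3K9ac from 102.3 to 20.1, and had H3K4me3 averages of 49.6 and 36.0, which were not called. GRMZM2G033406 (6.08 and 7.55 RPKM in base A and B) went from 359.3 to 89.6 in H3K9ac, and its H3K4me3 averages of 36.1 and 11 had an FDR of 0.0523 in the authors' deposited table. A weaker H3K9ac region of this gene went from 63.6 to 89.3 and was gained in that table (FDR 0.0377). GRMZM6G475484 (7.74 and 24.95 RPKM in base A and B) had no H3K9ac region, and its H3K4me3 averages of 311.5 and 239.9 were not called. Its region lay on an unplaced scaffold.

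The deepest H3K9ac loss was at GRMZM2G062151, which had 93 and 322 reads in the base libraries. Its region on chromosome 5 (193491327 to 193492213, B73 RefGen_v3 coordinates as deposited) went from 336.7 to 8.24, a retained share of 2.45%. GRMZM2G005384 followed with 787.8 and 32.7 on chromosome 5 (208613451 to 208614044), 4.15%. GRMZM2G092592, GRMZM2G167812 and GRMZM2G076225 kept 4.51%, 5.32% and 5.88%. All 5 had lost H3K9ac in the authors' deposited table. The 4 of them that had an H3K4me3 region had lost that mark as well and kept from 6.02% of it at GRMZM2G062151 to 17.6% at GRMZM2G167812.

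The deepest H3K4me3 loss was at GRMZM2G077845, with 76 and 171 reads in the base libraries. Its region on chromosome 2 (209674803 to 209675343) went from 210.9 to 2.27 normalized reads, a retained share of 1.08%, while its H3K9ac went from 405.6 to 30.3. GRMZM5G846550 went from 33.6 to 0.73 in H3K4me3 on chromosome 2 (6011223 to 6011875). That value, 0.73, is the lowest H3K4me3 average listed for the maturing zone and was shared by 12 regions, so its share of 2.17% is set by the floor of the table. GRMZM2G168386, GRMZM2G462623 and GRMZM2G177940 kept 2.98%, 3.09% and 3.23% of H3K4me3 and 8.14%, 22.0% and 22.1% of H3K9ac, and had lost both marks in the authors' deposited table.

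A few silenced genes kept a strong mark. The highest H3K9ac left in the maturing zone was at GRMZM2G129133, which had 63 and 39 reads in the base libraries, 0 and 0 in the maturing zone, and a region on chromosome 10 (140415094 to 140415739). Its H3K9ac averages were 343.2 and 308.3 and its H3K4me3 averages 319.2 and 268.2, and neither was called. A weaker H3K9ac region of the gene (140407035 to 140407749) went from 96.2 to 22.0 and was lost in the authors' deposited table. The remaining weaker ones were not called. Only 2 of 109 genes, GRMZM2G129133 and GRMZM2G146335, had maturing zone H3K9ac at or above 193.7, the median of all regions. For H3K4me3, 9 of 132 genes were at or above the median of 190.5.

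The highest H3K4me3 left was at GRMZM2G301908, with averages of 545.3 and 287.4. GRMZM2G014043 went from 616.1 to 263.9 in H3K4me3 and from 294.3 to 155.0 in H3K9ac, and both marks were lost by the authors' deposited table. At GRMZM2G463493 a large absolute signal and a deep loss went together. Its H3K4me3 region on chromosome 8 (17061109 to 17063733), 2624 bp long against a median of 797 bp, had 1971.6 normalized reads in the base, the highest among these genes, and 260.7 in the maturing zone, a retained share of 13.2%. Its H3K9ac share was 7.40%.

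With the strongest region of each gene taken, gains were called at 6 of 109 genes for H3K9ac and at 2 of 132 for H3K4me3. Among these, 1 gene gained both marks. GRMZM2G146335, with 38 and 25 reads in the base libraries and none in the maturing zone, had H3K9ac averages of 192.1 and 280.3 (FDR 0.00106 in the authors' deposited table) and H3K4me3 averages of 43.0 and 125.6 (FDR 0.0035) on chromosome 7 (77460027 to 77460653 for H3K9ac). GRMZM2G012117, on chromosome 7 (30181322 to 30181970), went from 56.9 to 179.8 in H3K9ac and had H3K4me3 averages of 63.0 and 69.0, the latter not called. It had 14 and 11 reads in the base libraries. GRMZM2G421655 (35.7 to 75.1), GRMZM2G063693 (128.5 to 177.5), AC219006.2_FG007 (111.8 to 151.9) and GRMZM5G888797 (59.4 to 83.4) were the other genes whose strongest H3K9ac region was gained in the authors' deposited table. Weaker H3K9ac regions were gained in that table at GRMZM2G088874, GRMZM2G069229, GRMZM2G412482, GRMZM2G480050, GRMZM5G814481 and GRMZM2G033406, whose strongest region was lost. The widest of these gains was from 13.42 to 85.45 at GRMZM2G088874 (FDR 2.73e-18). GRMZM2G048826 (36.0 to 94.3) was the other gene with an H3K4me3 gain. At an FDR under 0.01 in that table, 3 of the 6 H3K9ac gains were left: GRMZM2G063693 (FDR 0.0118), AC219006.2_FG007 (FDR 0.0266) and GRMZM5G888797 (FDR 0.0315) were not, while both H3K4me3 gains were.

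No region assigned to another gene lay within 2000 bp of the strongest regions that were gained. The strongest H3K9ac region of AC219006.2_FG007 starts at 131515023 on chromosome 8 and its H3K4me3 region, which went from 121.6 to 33.8, at 131503404, so these 2 values come from separate places. A weaker H3K9ac region of the gene (131513069 to 131513719) went from 88.7 to 61.6. It was lost in the authors' deposited table (FDR 0.0213), so H3K9ac moved both ways at this gene. The count of 6 H3K9ac gains was 4 when genes were ranked by base A alone and 4 by base B alone. It was 5 and 3 when 0 reads were asked of maturing zone library B alone and A alone, and the count of 2 H3K4me3 gains was then 1 and 3. Large shares without a call were seen for H3K4me3 at GRMZM2G432926 (74.7 to 132.8), GRMZM2G101409 (76.5 to 105.4) and GRMZM5G881969 (64.4 to 82.8). GRMZM2G101409 had lost H3K9ac, with averages of 86.9 and 27.1.

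Several regions at 1 gene did not always move together. Of the 109 genes, 21 had more than 1 H3K9ac region, and over all 138 H3K9ac regions of the genes 116 were lost, 14 gained and 8 not called in the authors' deposited table, where 33.8% of all regions were lost and 33% gained. For H3K4me3, 7 of 132 genes had more than 1 region, and of 139 regions 87 were lost, 2 gained and 50 not called, against 14.3% lost and 11.3% gained over all regions. GRMZM2G069229, which had 120 and 30 reads in the base libraries, had H3K9ac averages of 445.5 and 89.9 in its strongest region, 287.9 and 343.3 in the next and 43.0 and 123.5 in the third, while its H3K4me3 went from 114.2 to 9.94. This gene was chosen after its values were seen.

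Within the 95 genes that had both marks, H3K9ac was the more depleted at most. The retained share was smaller for H3K9ac than for H3K4me3 at 63 genes and larger at 32, with medians of 19.6% and 29.3%. Both marks were lost at 65 genes by the authors' deposited table, and H3K9ac was lost with H3K4me3 not called at 24. The strongest regions of the 2 marks overlapped by at least 1 base at 91 of the 95 genes. The 2 retained shares were ranked alike to a moderate degree, with Spearman's rho of 0.449 across 95 genes, which share their zones and are not independent replicates. At 35 genes both shares were under 25%, and at 7 both were 50% or more.

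A split between the marks was mostly one-sided. Under 25% of H3K9ac with 50% or more of H3K4me3 was found at 9 genes, and the reverse at 1, GRMZM2G450069, with 53.2% and 24.9%. Among the 9 was GRMZM2G059887, which had 189 and 594 reads in base libraries A and B (1.64 and 9.66 RPKM). Its H3K9ac went from 924.4, the highest base value among the genes, to 72.5, and its H3K4me3 from 245.8 to 124.8. The H3K4me3 share was 50.8%, just above the limit, and both marks were lost in the authors' deposited table (FDR 0.0483 for H3K4me3). Since the marks came from separate immunoprecipitations with their own scaling, the sizes of the shares are set side by side here with no test.

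**Figure D3:**
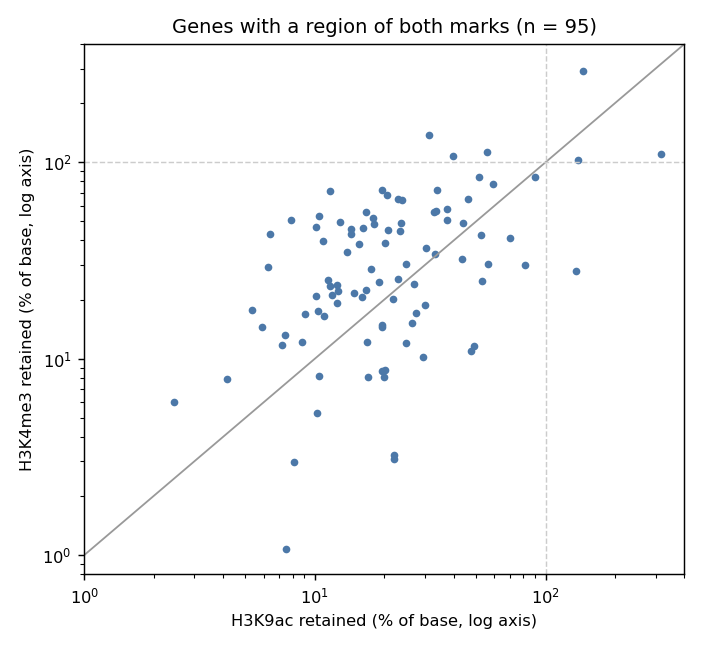
Retained share of H3K9ac (x axis) and of H3K4me3 (y axis), as percent of the base average on log axes, for the 95 silenced genes with a region of both marks; the solid line marks equal shares and the dashed lines 100%. Of the 95 points, 63 lie above the line, where more H3K4me3 than H3K9ac was retained.

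The depth of loss followed the base level loosely. For H3K9ac the median retained share was 18.3% for the genes ranked 1 to 50, 19.9% for 51 to 100, 21.2% for 101 to 150 and 33.8% for 151 to 200. All 26 H3K9ac-bearing genes of the first 50 had lost the mark in the authors' deposited table, against 21 of 25 in the last 50. For H3K4me3 the medians were 24%, 28.7%, 43.0% and 46.9%, with 25 of 33 lost in the first 50 and 17 of 33 in the last. Base signal fell along the same order, from a median of 249.1 to 148.4 normalized reads for H3K9ac and from 160.4 to 78.5 for H3K4me3. Spearman's rho of the smaller base RPKM with the retained share was -0.258 across 109 genes for H3K9ac and -0.265 across 132 genes for H3K4me3, which are weak relations across genes. For H3K9ac, rho of the retained share was -0.392 with the base average and -0.250 with exon length, the latter about as weak as with base RPKM. For H3K4me3 both were weaker than with base RPKM, at -0.175 and -0.110. The base average is also the divisor of the retained share, which by itself pulls rho between them below 0. The properties are themselves related, and their separate parts were not tested.

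Set beside other protein-coding genes, the silenced genes had the lowest median retained share of both marks among the groups compared. Genes active in both zones had a median retained share of 98.7% for H3K9ac over 14690 genes and 104.3% for H3K4me3 over 14296. The mirror group, the 200 genes with 0 base reads that stood highest in the maturing zone, had medians of 475.3% over 112 genes and 377.3% over 97, with 102 gains of H3K9ac and 66 of H3K4me3 in the authors' deposited table. Its shares rest on small divisors: the median base averages were 35.7 for H3K9ac and 33.1 for H3K4me3. In the base, 62 of the 112 and 52 of the 97 were in the lowest 10% of all regions. Genes with 0 reads in all 4 libraries that nonetheless had a region showed medians of 103.4% over 1006 genes and 104.0% over 889. Their maturing zone averages had medians of 143.8 normalized reads for H3K9ac and 123.6 for H3K4me3, above the 43.6 and 40.6 of the silenced genes. These differences between groups of genes were not tested, since the tables hold no values per replicate.

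**Figure D4:**
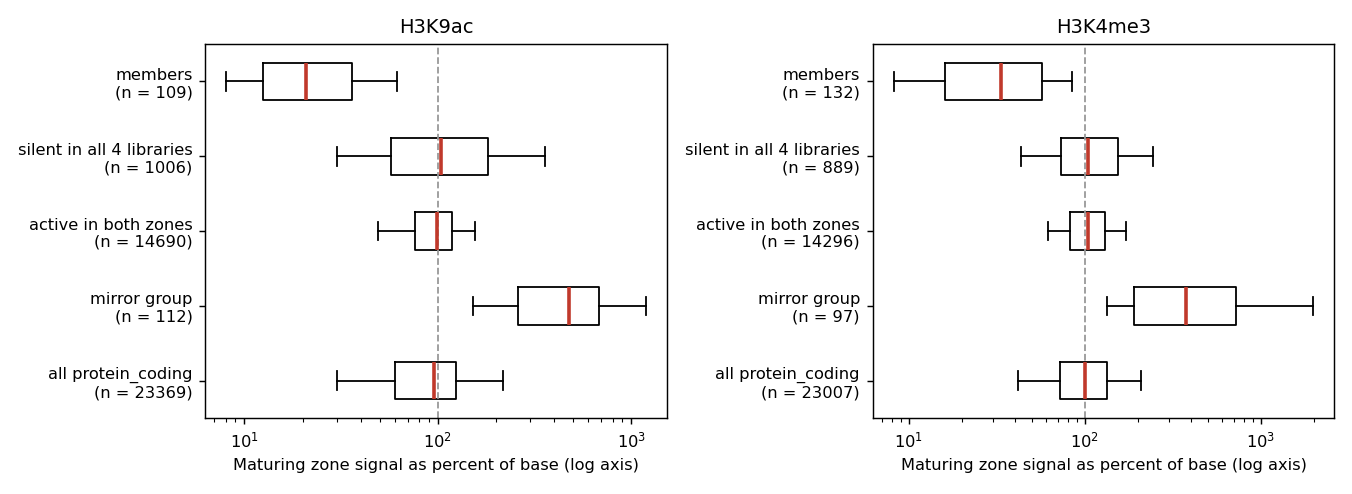
Maturing zone signal as percent of base (log axis) for H3K9ac (left) and H3K4me3 (right); "members" are the silenced genes, the box spans the quartiles, the line is the median, the whiskers reach the 10th and 90th percentiles, and the dashed line marks 100%. The silenced genes have medians of 20.7% and 33.2%, while genes without reads in any library and genes active in both zones lie around 100%.

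Retained marks changed gradually with the number of maturing zone reads. All 20980 protein-coding genes at 0.33 RPKM or more in both base libraries were divided by their reads in both maturing zone libraries together. The median retained share of H3K9ac was 21.0% at 0 reads (202 genes, including the next 2 by rank), 23.3% at 1 to 2 reads, 28.4% at 3 to 10 and 50.2% at 11 to 100. It reached 91.9% at 101 to 1000 reads and 105.1% above. For H3K4me3 the medians were 33.2%, 34.6%, 39.6%, 63.8%, 95.1% and 115.3% in the same order. The share of genes with an H3K9ac region rose along the series, from 54.5% at 0 reads to 92.2% above 1000, and the base average from a median of 194.5 to 460.9. Genes with 1 to 10 reads thus had medians close to those of genes with none. H3K4me3 was lost in the authors' deposited table at 62.9% of genes with 0 reads and at 65.3% of those with 1 to 2. When up to 2 reads were allowed and the 200 highest genes taken, the medians were 16.2% for H3K9ac and 24% for H3K4me3. That list shared 37 genes with the one described. Being drawn from a larger pool, it also stood higher in base level, so its lower medians cannot be set down to read number.

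**Figure D5:**
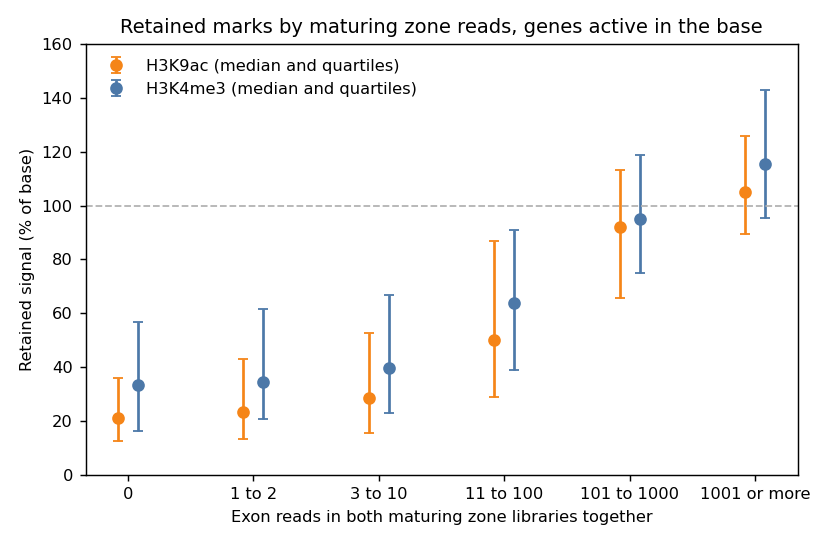
Median retained share (points) with quartiles (bars), as percent of the base average, for H3K9ac and H3K4me3, by the number of exon reads in both maturing zone libraries together (x axis), over protein-coding genes at 0.33 RPKM or more in both base libraries. The medians stay between 21.0% and 39.6% up to 10 reads and lie at 91.9% or above from 101 reads on.

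Regions assigned to some silenced genes lay close together. The H3K9ac regions of AC203307.4_FG001 and GRMZM2G389881 on chromosome 6 were 255 bp apart. AC203307.4_FG001 kept 33.2% of H3K9ac and 34.0% of H3K4me3, and GRMZM2G389881 27.0% and 24%. On chromosome 5 the H3K9ac regions of GRMZM2G477762 and AC204048.3_FG002 were 1244 bp apart, with retained shares of 8.78% and 19.5% for H3K9ac and 12.1% and 14.8% for H3K4me3. Both genes of each pair had 0 reads in the maturing zone and had lost both marks in the authors' deposited table.

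Names were found for few of the genes. Of the 200, 89 matched an entry in the RefSeq gene table, and 8 had a name there beyond a locus number or a marker. The 2 NAC genes and the MYB gene belong to families whose names had been listed for a search, and the other 5 are given because they were the rest of the named genes. Of the 8, 4 had neither mark, against 54 of all 200.

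The NAC genes carried no region of either mark. GRMZM2G052239 is listed as ANAC030, which in Arabidopsis is VND7, a NAC factor that sets off the differentiation of xylem vessels. It had 26 and 51 reads in base libraries A and B (0.50 and 1.84 RPKM) and 0 in the maturing zone. GRMZM2G041668 is listed as ANAC076, which in Arabidopsis is VND2 of the same subfamily, and had 56 and 28 reads in base libraries A and B (0.58 and 0.54 RPKM). The same names are also listed for GRMZM2G440219, which had 0 reads in all 4 libraries. Of 31 protein-coding genes with a NAC name, 17 had an H3K9ac region, of which 3 lost and 7 gained the mark in the authors' deposited table, and 17 an H3K4me3 region, of which 2 lost and 4 gained it. The MYB gene GRMZM2G088783 (MYB47), of the MYB transcription factor family, had 27 and 47 reads in the base libraries and no region. Among 63 genes with a MYB name, 15 of 46 lost and 13 gained H3K9ac, and 5 of 47 lost and 10 gained H3K4me3 by that table. Over all protein-coding genes with a region, 35.6% lost and 23.9% gained H3K9ac and 13.3% lost and 10.1% gained H3K4me3, so the MYB shares of loss were near those of all genes. The 30 genes with a homeobox name, 20 with a WRKY name, 46 with a bHLH name and 30 with a MADS name held 0 of the 200, which make up 0.509% of all protein-coding genes, so that a count of 0 in lists of this size says nothing about these families.

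The developmental regulators among the named genes differed in their marks. FEA4 (GRMZM2G133331), a bZIP transcription factor that limits meristem size in maize, had 62 and 71 reads in base libraries A and B (0.62 and 1.34 RPKM), no H3K9ac region, and H3K4me3 averages of 46.1 and 35.9 that were not called. OFP29 (GRMZM2G127431), of the OVATE family of growth regulators, had 28 and 15 reads in the base libraries. Its strongest H3K9ac region went from 243.9 to 170.2 (FDR 0.0213 in the authors' deposited table) and its H3K4me3 from 199.7 to 82.3 (FDR 0.0306). These regions did not overlap. A weaker H3K9ac region that did overlap the H3K4me3 region went from 149.2 to 112.4 and was not called (FDR 0.0709). ZCN3 (GRMZM2G338454), of the family of the flowering regulators FT and TFL1, had 60 and 18 reads in base libraries A and B (3.76 and 2.11 RPKM) and no region of either mark.

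The remaining named genes were a wall enzyme and a gene listed as G1. Cel21 (GRMZM2G009025), named as a cellulase, had 64 and 81 reads in the base libraries, no H3K9ac region, and H3K4me3 averages of 177.4 and 86.0 that were not called. GRMZM2G142721, listed as G1, had 44 and 8 reads in the base libraries. Its H3K9ac went from 96.5 to 10.5, a share of 10.9%, and its H3K4me3 from 206.3 to 82.4, a share of 39.9%. Both were lost by the authors' deposited table.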

How the data were processed

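Per the file headers, the RNA table holds read counts over exons and RPKM that the authors computed, for 4 libraries. The ChIP tables hold the authors' average normalized read signal per zone, a signed fold score and an FDR-corrected p-value per deposited region. Despite its header, the fold is positive where the maturing zone average is higher; lost and gained mean lower and higher in the maturing zone. The averages carry no error, since their scaling, the number of ChIP libraries and the ChIP depth were not stated in the headers or labels. Per the submitters' processing notes, the tools included edgeR, DiffBind 1.10.0, Trimmomatic 0.32 and CASAVA 1.8.2, and the build was B73 RefGen_v3; no roles are recorded.

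The replicates are described in the labels as separate pools. No new test was run: the transcript contrast chose the genes, and the mark calls are the deposited ones. Library scaling used edgeR 4.0.16 (TMM) and summaries pandas 2.3.3; the selection and summary steps were tested on simulated data. Genes and lists were chosen with earlier results of these data known. Named genes follow a rule: the 10 highest in base level, the 5 highest in maturing zone signal, the 5 largest and 5 smallest retained shares per mark, called gains, genes at rank 200, and genes with family names. Outside it, GRMZM2G059887, GRMZM2G069229, GRMZM2G450069, GRMZM5G820912, the genes with gains in weaker H3K9ac regions, the pairs of nearby regions and the named genes of other families were chosen after their values were seen. Strandedness is not given, so antisense reads and reads of near-identical copies may be shared. Names come from RefSeq on assembly Zm-B73-REFERENCE-NAM-5.0, whose coordinates were not used. No sequence is shown, as none was used here.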

Additional observations from a re-analysis of the deposited data

How the results depend on the processing

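Each share at the silenced genes was recomputed under other choices. Resting the zero-read rule or the ranking on 1 RNA library gave H3K9ac regions at 54% to 67.0% of genes, with 91.0% to 95.4% of them lost, 2.42% to 3.73% gained and median retained shares of 18.9% to 22.0%. For H3K4me3 the ranges were 62.0% to 73.5%, 59.7% to 77.6%, 0.68% to 2.13% and 24.6% to 38.1%. With 0 reads asked of maturing zone library B alone or A alone, 50 and 77 of the 200 genes were shared with the list described. In the top 100, 96.6% lost and 1.72% gained H3K9ac and the H3K4me3 median was 24.5%. In the top 400 the medians were 26.1% and 45.8%, with H3K4me3 regions at 56.2% of genes and 51.1% of those lost. Allowing up to 2 maturing zone reads gave 65.0% with H3K9ac and a median of 16.2%, and for H3K4me3 73.5% with a region, 81.0% lost and a median of 24%. Asking at least 2-fold left 82.6% lost and 1.83% gained for H3K9ac. An FDR under 0.01 left 53.8% lost for H3K4me3. For H3K9ac the same FDR left 2.75% gained. Leaving out regions within 2000 bp of a region of another gene with maturing zone reads, asking at least 10 reads in each base library, and, chosen after seeing the data, taking the region of highest maturing zone signal left the shares within the 95% interval of the reported value. Summing a gene's regions or dividing by the median of all regions was run for the median retained share alone, giving 21.2% and 20.6% for H3K9ac and 33.2% and 32.9% for H3K4me3. The intervals are over genes, which are not independent replicates, and do not cover the spread between plants. The region nearest the gene start was not run, since gene positions were not used here. No paired analysis was possible because the mark tables hold no value per replicate and the transcript contrast chose the genes.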

Other observations

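The same rule, with the lowest level of 0.33 RPKM in both base libraries and 0 maturing zone reads, was met by 85 of 40569 low-confidence gene models and by 10 of 29953 transposable element features. Of the 85 low-confidence models, 40 had an H3K9ac region with a median retained share of 28.4%, of which 33 were lost and 2 gained in the authors' deposited table, and 27 had an H3K4me3 region with a median of 43.2%, of which 16 were lost and 0 gained. Of the 10 transposable element features, 3 had an H3K9ac region and 2 an H3K4me3 region, and all of these were lost by that table.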
